A study of Mus musculus with 16 samples.

Results

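The integrated stress response and the XBP1 branch of the unfolded protein response were followed through 10 listed genes in the hypothalamus of diet-induced obese mice. The genes were taken by name (Eif2ak3, Atf4, Ddit3, Trib3, Asns, Chac1, Ern1, Xbp1, Dnajb9 and Atf6), and all 10 of 10 stood among the 24047 genes of the deposited count table. A low-count filter left 14775 genes for testing, 9 of these members among them; Trib3 was too low. RNA of whole hypothalamus from C57BL/6J mice made obese on a high-fat diet was sequenced in 16 libraries, 4 in each of 4 groups.

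All mice first had 1 week of daily DMSO injections into the abdomen and were then treated for 4 days. PF+CS mice received celastrol, a plant triterpenoid studied as a leptin sensitizer, at 100 µg per kg per day together with a fixed daily ration of 0.5 g high-fat diet. CS mice were given the same dose of celastrol and could eat freely. PF mice were injected with DMSO and held to the same ration, of which 0.34 g was given for the dark phase and 0.16 g for the light phase. Veh mice were injected with DMSO and could eat freely. The ration of 0.5 g lay below the 0.8 g per day that celastrol-treated mice ate on average. CS mice thus also ate little, but were not matched to PF mice in intake. The final injection was at about 8 in the morning and the tissue was collected 6 h later. Age and sex are not stated, and nothing says whether mice of a group shared a cage or a day, so p-values measure only the spread between these samples. The design asks which hypothalamic genes follow celastrol itself and which follow the reduced food intake that comes with it.

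The endoplasmic reticulum folds secreted and membrane proteins, and 3 sensors in its membrane read how well it keeps up. PERK, the product of Eif2ak3, phosphorylates the initiation factor eIF2, which slows translation in general but favours that of ATF4, a transcription factor for amino acid and redox genes. IRE1, the product of Ern1, splices the Xbp1 mRNA so that it encodes an active factor for chaperone and export genes, and ATF6 is cut free in the Golgi to act on many of the same genes. In the obese hypothalamus this stress is known to blunt leptin signalling. Counts per gene show mRNA levels. They show neither phosphorylation nor the splicing of Xbp1 nor the translation of Atf4.

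The promoter windows below are shown because they come from the 2 arms met in the results. Chac1, Asns and Trib3 belong to the ATF4 arm, where the first 2 were not called in any comparison and Trib3 was too low to test, and Hsp90b1 and Pdia6 are chaperone genes of the XBP1 and ATF6 arm that were called lower in CS minus PF. Each window runs from 250 bases before to 50 bases after the start of the gene in RefSeq (GRCm38.p6), in the direction of the gene. Capitals mark TGATGNAA on either strand in the first 3, a form of the element that ATF4 binds with C/EBP partners, and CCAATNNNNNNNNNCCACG on either strand in the last 2, the endoplasmic reticulum stress element. The window of Xbp1 is shown as that of the member on which the results turn and holds neither set of letters. The windows are Chac1 at chr2:119350992-119351291 on the plus strand, Asns at chr6:7693160-7693459 on the minus strand and Trib3 at chr2:152344011-152344310 on the minus strand. Xbp1 lies at chr11:5520391-5520690 on the plus strand, Hsp90b1 at chr10:86705395-86705694 on the minus strand and Pdia6 at chr12:17266339-17266638 on the plus strand.
Chac1: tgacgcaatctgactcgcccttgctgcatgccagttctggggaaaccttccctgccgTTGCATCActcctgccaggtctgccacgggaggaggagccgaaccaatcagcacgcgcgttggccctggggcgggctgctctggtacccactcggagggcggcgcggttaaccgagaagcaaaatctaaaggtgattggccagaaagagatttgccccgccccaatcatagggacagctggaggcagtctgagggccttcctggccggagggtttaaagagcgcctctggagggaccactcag
Asns: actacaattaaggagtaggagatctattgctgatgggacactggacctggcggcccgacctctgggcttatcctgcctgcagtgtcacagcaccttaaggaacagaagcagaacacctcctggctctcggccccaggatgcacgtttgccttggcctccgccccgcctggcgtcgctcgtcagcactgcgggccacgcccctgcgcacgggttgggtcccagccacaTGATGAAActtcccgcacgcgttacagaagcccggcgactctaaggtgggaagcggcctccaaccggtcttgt
Trib3: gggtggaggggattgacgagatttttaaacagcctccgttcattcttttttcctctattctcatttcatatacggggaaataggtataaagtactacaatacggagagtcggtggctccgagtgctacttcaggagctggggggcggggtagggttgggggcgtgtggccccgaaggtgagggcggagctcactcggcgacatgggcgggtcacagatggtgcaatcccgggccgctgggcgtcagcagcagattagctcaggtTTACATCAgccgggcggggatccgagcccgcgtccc
Xbp1: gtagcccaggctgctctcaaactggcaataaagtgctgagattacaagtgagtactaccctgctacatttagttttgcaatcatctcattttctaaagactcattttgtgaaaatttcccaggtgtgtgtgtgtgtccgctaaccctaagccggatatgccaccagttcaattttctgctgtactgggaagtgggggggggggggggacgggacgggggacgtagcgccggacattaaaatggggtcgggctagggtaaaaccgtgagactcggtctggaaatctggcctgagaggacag
Hsp90b1: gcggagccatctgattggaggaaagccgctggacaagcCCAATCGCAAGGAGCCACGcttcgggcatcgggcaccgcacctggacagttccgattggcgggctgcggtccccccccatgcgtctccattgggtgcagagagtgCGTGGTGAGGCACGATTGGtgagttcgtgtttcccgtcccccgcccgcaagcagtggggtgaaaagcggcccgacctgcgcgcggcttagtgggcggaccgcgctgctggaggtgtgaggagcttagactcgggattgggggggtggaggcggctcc
Pdia6: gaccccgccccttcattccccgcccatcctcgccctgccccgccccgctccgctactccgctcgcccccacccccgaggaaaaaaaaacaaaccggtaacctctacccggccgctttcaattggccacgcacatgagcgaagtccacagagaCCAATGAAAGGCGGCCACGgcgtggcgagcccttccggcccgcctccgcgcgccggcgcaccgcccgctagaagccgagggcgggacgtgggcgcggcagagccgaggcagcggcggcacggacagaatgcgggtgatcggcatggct

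Of the 10 members, 9 had a window in the RefSeq table; Atf6 is named only. TGATGNAA stood in 3 of these 9, beginning 193 bases before the start in Chac1 (position -193), at position -23 in Asns and at position 15 in Trib3, counted from 1 at the first transcribed base with no position 0. Over all 32851 windows of the table it stood in 3.97%. Beside the members, a window was found for 7 of 12 listed aminoacyl-tRNA synthetases and 29 of 33 listed ATF4 and CHOP targets. It stood in 5 of these 7 and 8 of these 29. The stress element stood in 0 of the 9 member windows and in 0.119% of all windows. For the XBP1 and ATF6 targets a window was found for 29 of 36 listed, and the stress element stood in 9 of these. Hsp90b1 held it at positions -212 and -107 and Pdia6 at -98, and no window shown holds both motifs. A match is a description of the letters and was not tested as a binding site.

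Labels within the deposit disagree. Of 5 deposited comparison tables, 3 were computed from other count columns than their names say, and all 5 names would match if PF and CS were exchanged. Below, PF and CS are the names of the count columns. If the table names are right, each statement on PF and CS changes places with the other, CS minus PF changes its sign, and what is given for the ration becomes a statement on celastrol. PF+CS minus Veh and the interaction are not touched by this.

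Library totals ranged over 6008564 to 12880459 counts, with 16998 to 17961 genes having a count. The 14 hypothalamic neuron markers, among them Agrp, Pomc and Oxt, were all above 0 and summed to 755 to 979 CPM (counts scaled to library size). In 5 libraries (PF+CS 4, CS 2, PF 1, PF 2 and Veh 3) meningeal fibroblast markers averaged 1.938 to 2.393 log2 CPM, against 3.695 to 4.429 in the other 11, and calls among the named genes that were lost without these libraries are said to be so. In bulk tissue, fewer cells of a type and less RNA per cell cannot be told apart.

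Levels between the members were compared per length, as median FPKM over the 16 libraries. Atf4 stood highest at 14.5 FPKM (range 12.7 to 16.6), followed by Asns at 12.3 (11.4 to 13.6), Dnajb9 at 11.2 (10.2 to 12.5) and Xbp1 at 11.2 (9.54 to 15.3). Ranges of these neighbours overlapped. Ddit3 followed at 4.14 FPKM (3.28 to 5.74), and its range touched neither that of Xbp1 nor that of the next gene. Atf6 at 2.73 FPKM (2.45 to 3.01) and Eif2ak3 at 2.34 (1.95 to 2.58) overlapped, as did Ern1 at 1.55 (1.18 to 1.79) and Chac1 at 1.03 (0.843 to 1.40), while the ranges of Eif2ak3 and Ern1 were apart. Trib3 came last at 0.0789 FPKM (0 to 0.142). Atf4, Asns, Dnajb9, Xbp1 and Ddit3 thus stood above the mRNAs of the 3 sensors per length. Over the 16 libraries the highest CPM exceeded the lowest by 1.12-fold in Asns and by 1.20-fold to 1.44-fold in Atf6, Atf4, Eif2ak3, Dnajb9, Ern1 and Chac1. It exceeded it by 1.58-fold in Xbp1 and 1.80-fold in Ddit3.

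**Figure D1:**
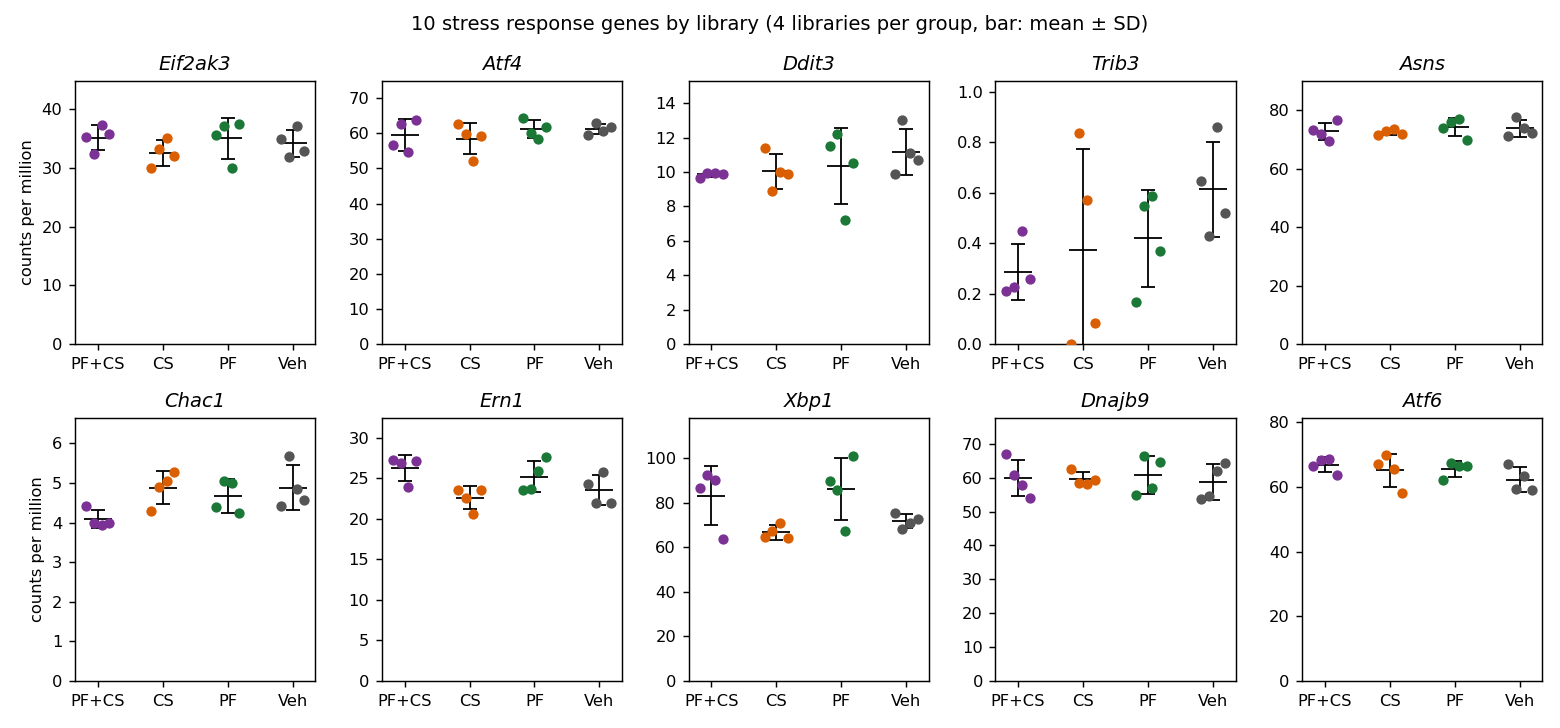
CPM (vertical axis, from 0) of the 10 genes in each library (points), with the mean and SD of each group of 4 (bars); groups run PF+CS, CS, PF and Veh. Xbp1 stands higher in 3 of 4 PF+CS and 3 of 4 PF libraries than in every CS and Veh library, Trib3 stays under 1 CPM, and the Trib3 bar of CS runs below 0 and is cropped there.

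Genes were compared by edgeR's quasi-likelihood test on all 16 libraries and called at a Benjamini-Hochberg adjusted p of at most 0.05 over all genes tested. Of the 9 members tested, 0 were called in CS minus Veh, where 0.893% of all genes were called, and 0 in PF minus Veh, where 3.63% were. Likewise 0 were called in PF+CS minus Veh (10.3% of all genes), CS minus PF (3.80%), PF+CS minus CS (2.65%) and PF+CS minus PF (0.0948%). At an unadjusted p below 0.05 edgeR gave Xbp1 in PF minus Veh, Xbp1 and Ern1 in CS minus PF, and the same 2 when PF+CS was set against CS. It gave 0 members at that level in CS minus Veh, PF+CS minus Veh and the difference of PF+CS and PF. A share of 10.3% of 9 genes is about 1 gene, so the counts of 0 are near the background and the intervals of each gene carry more. DESeq2 on the same counts and limma on the FPKM values called 0 members in these 6 differences as well.

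In the eIF2 and ATF4 arm, Eif2ak3, Atf4, Ddit3, Asns and Chac1 differed by -0.26 to 0.11 on the log2 scale over the 6 differences, with a smallest adjusted p of 0.299 by edgeR. Atf4, the transcription factor at the centre of the response, had 56.8, 62.7, 54.8 and 63.9 CPM in PF+CS libraries, 62.6, 59.9, 52.1 and 59.3 in CS, 64.5, 60.1, 58.5 and 61.7 in PF, and 59.6, 63.0, 60.6 and 61.7 in Veh. The 4 groups overlapped throughout. Its log2 differences ran over -0.07 to 0.02, and the 95% intervals of all 6 lay within -0.19 to 0.14. Asns, the asparagine synthetase that ATF4 induces when amino acids run short, was the steadiest member. It had 73.2, 72.0, 69.6 and 76.6 CPM in PF+CS libraries, 71.6, 73.0, 73.6 and 72.0 in CS, 74.1, 76.1, 76.9 and 70.0 in PF, and 71.4, 77.9, 74.0 and 72.2 in Veh. Its group means were 72.8 ± 2.92, 72.6 ± 0.891, 74.3 ± 3.05 and 73.9 ± 2.92 CPM (SD, n = 4) in PF+CS, CS, PF and Veh, and all 6 intervals lay within -0.13 to 0.10 log2. These 2 genes, with 382 to 943 counts per library, allow the tightest limits among the 5 genes.

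Eif2ak3, which encodes the sensor kinase PERK, had 35.2, 32.3, 37.3 and 35.7 CPM in PF+CS libraries, 29.9, 33.1, 35.1 and 32.0 in CS, 35.5, 37.0, 29.9 and 37.5 in PF, and 34.8, 31.9, 37.1 and 32.8 in Veh. The groups overlapped, and PF 3 was as low as the lowest CS library. Its 6 intervals lay within -0.26 to 0.26 log2. In the annotation 485 bases of an exon of Eif2ak3 overlap the opposite-strand model Gm43292, and the strand of the libraries is not stated, so reads from the 2 cannot be told apart.

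Ddit3 encodes CHOP, the factor induced by ATF4 in prolonged stress. It had 9.67, 9.93, 9.95 and 9.90 CPM in PF+CS libraries, 11.4, 8.87, 9.98 and 9.88 in CS, 11.5, 12.2, 7.22 and 10.5 in PF, and 9.86, 13, 11.1 and 10.7 in Veh. The PF libraries held both a high and the lowest value, while the 4 PF+CS libraries had an SD of only 0.129 CPM. Its log2 differences ran over -0.18 to -0.02 and its intervals over -0.44 to 0.24, wider than those of Atf4. Its exons overlap opposite-strand exons of Mars by 68 bases and of Gm4189 by 13, and the annotation lists a second Ddit3 model inside it, so its counts are uncertain to that extent.

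Chac1, which degrades glutathione and is an ATF4 target, had 4.42, 4.00, 3.95 and 3.98 CPM in PF+CS libraries, 4.29, 4.91, 5.04 and 5.28 in CS, 4.39, 5.06, 5.01 and 4.24 in PF, and 4.41, 5.69, 4.86 and 4.58 in Veh. In 3 of 4 PF+CS libraries it lay below every library of the other groups, and the fourth, PF+CS 1, overlapped with them. The difference PF+CS minus Veh was -0.26 log2 (SE 0.15, 95% interval -0.57 to 0.05, adjusted p = 0.299 by edgeR) and PF+CS minus CS -0.26 log2 (interval -0.57 to 0.05, adjusted p = 0.41). With 26 to 62 counts per library these differences were not distinguishable from 0.

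Trib3, the pseudokinase that CHOP and ATF4 induce and that feeds back on both, had 2, 2, 5 and 2 counts in PF+CS libraries, 0, 7, 6 and 1 in CS, 1, 5, 4 and 4 in PF, and 5, 4, 11 and 5 in Veh. Sums of the 4 libraries were 11 counts in PF+CS, 14 in CS, 14 in PF and 25 in Veh. Every pair of groups overlapped. Without the low-count filter its adjusted p over the 6 differences was 0.301 to 0.933 by edgeR, so a difference was not detectable at this depth.

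**Figure D2:**
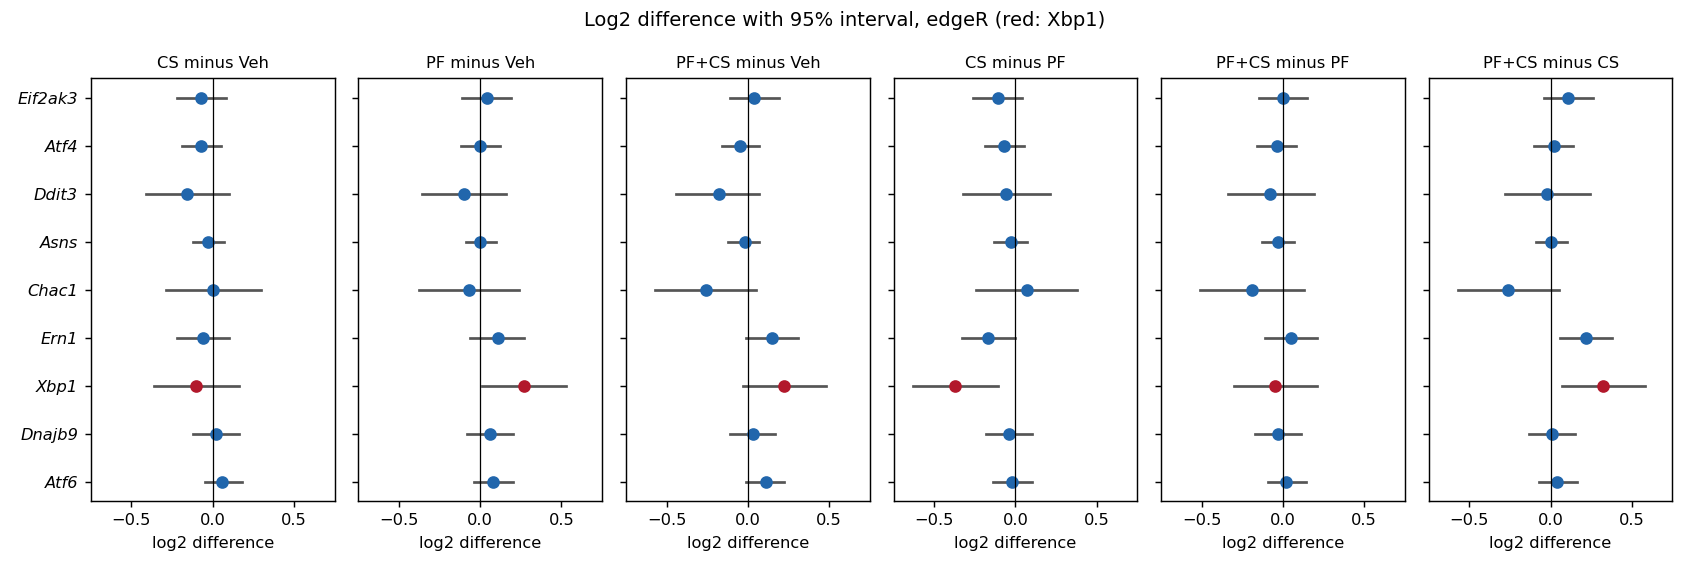
Log2 difference (horizontal axis) of the 9 tested genes in each of the 6 comparisons between groups, with its 95% interval from edgeR (bars); Xbp1 is in red. The intervals of Atf4 and Asns are short and cross 0 in each panel, and those of Xbp1 leave 0 out in PF minus Veh, in CS minus PF and in PF+CS minus CS before adjustment for the number of genes.

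In the IRE1, XBP1 and ATF6 arm, Xbp1 moved furthest. Xbp1 (chr11:5520659-5525893, GRCm38, protein-coding) had 86.9, 92.6, 90.1 and 63.7 CPM in PF+CS libraries, 64.5, 67.3, 71.2 and 64.2 in CS, 90.0, 86.0, 67.6 and 101 in PF, and 75.5, 68.1, 71.2 and 72.6 in Veh. PF+CS and PF libraries were high except PF+CS 4 and PF 3, and through these 2 libraries the groups overlapped. Group means were 83.3 ± 13.3 CPM in PF+CS, 66.8 ± 3.25 in CS, 86.0 ± 13.7 in PF and 71.8 ± 3.11 in Veh (SD, n = 4). The SD was thus over 4 times larger in both groups on the ration.

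CS minus PF was -0.37 log2 for Xbp1 (SE 0.12, 95% interval -0.63 to -0.11, adjusted p = 0.11 by edgeR), 0.772-fold. PF+CS minus CS was 0.32 log2 (SE 0.12, interval 0.07 to 0.58, adjusted p = 0.184), and PF minus Veh 0.27 log2 (SE 0.12, interval 0.01 to 0.53, adjusted p = 0.244). The remaining differences were smaller. For PF+CS minus Veh it was 0.22 log2 (adjusted p = 0.273), CS minus Veh -0.10 (adjusted p = 0.772) and PF+CS minus PF -0.05 (adjusted p = 0.961), the last with an interval of -0.30 to 0.21. PF 3 and PF+CS 4 were the lowest of their groups in Xbp1, and leaving out either changed the calls. These 2 libraries are picked out by Xbp1 itself, so p-values without them are no independent evidence. Without PF 3, PF minus Veh was 0.36 log2 (adjusted p = 0.0458) and CS minus PF -0.46 (adjusted p = 0.015). Without PF+CS 4, PF+CS minus Veh was 0.33 log2 (adjusted p = 0.0129), PF+CS minus CS 0.42 (adjusted p = 0.00413) and CS minus PF -0.37 (adjusted p = 0.0116). Within its group PF+CS 4 also stood apart over all genes. Its counts differed from those of the other 3 PF+CS libraries with a chi-square per degree of freedom of 4.83 to 5.18, against 1.95 to 2.24 among those 3. Such values were not particular to PF+CS 4. Veh 4 differed from Veh 1 with 6.59 and from Veh 3 with 5.68. PF+CS 4 is 1 of the 5 libraries low in meningeal markers. Xbp1 in the others of these was 90.0 CPM in PF 1, 86.0 in PF 2, 67.3 in CS 2 and 71.2 in Veh 3. PF+CS 4 had the highest sums of its group for microglia (272 CPM) and oligodendrocytes (3584 CPM). It also had the group's highest share of the ribosomal RNA precursor Rn45s (4.03% of counts, against 2.79% to 3.04%), while Veh 4 had 5.62%.

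The authors' deposited tables called Xbp1 in 2 of their 5 comparisons and no other member in any. In the authors' deposited table computed from the CS and PF columns, Xbp1 had a log2 change of -0.290 (adjusted p = 0.00329) as coded there. In the authors' deposited table computed from the PF+CS and CS columns it had 0.248 (adjusted p = 0.0136).

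All 16 libraries were also set against each other by diet. This contrast, the mean of PF+CS and PF minus the mean of CS and Veh, was added after the values of each library had been seen, and its p is no independent evidence of the pattern. Xbp1 ranged over 63.7 to 101 CPM with a median of 88.4 in the 8 libraries on the ration, against 64.2 to 75.5 with a median of 69.6 in the 8 libraries with free food. Of the 8 libraries on the ration, 6 lay above all 8 with free food and 1, PF+CS 4, lay below them all. Xbp1 rose by 0.30 log2 on the ration (SE 0.08, 95% interval 0.12 to 0.48, 1.23-fold, adjusted p = 0.0369 by edgeR). It was the 1 member of 9 called, where 11.4% of all genes tested were called in the same contrast, so the count itself is near the background. With PF and CS exchanged, as the table names have it, this contrast would be the one for celastrol. The corresponding contrast for celastrol, the mean of PF+CS and CS minus the mean of PF and Veh, gave -0.08 log2 for Xbp1 (interval -0.26 to 0.11, adjusted p = 0.736), with 0 of 9 members (0 at an unadjusted p below 0.05 and 0 by DESeq2) and 2.59% of all genes called. The interaction was 0.05 log2 for Xbp1 (interval -0.31 to 0.42, adjusted p = 0.988). It had 0 calls among the members and 0.00% among all genes by edgeR, with 741 genes and 0 members at an unadjusted p below 0.05 and 0 calls by DESeq2 and by limma on FPKM.

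Xbp1's call on the ration was close to the threshold. It was lost in 16 of 23 other ways of processing, where the adjusted p reached 0.0856, and in 13 of 16 fits that left out 1 library, while the log2 change stayed between 0.25 and 0.35. It was kept by DESeq2 (adjusted p = 0.0135), after correction for length and GC content (0.0312) and without the 5 libraries low in meningeal markers (0.34 log2, adjusted p = 0.0299). Without PF+CS 4, the library lowest in Xbp1, the adjusted p was 0.000414 by edgeR, which is no independent evidence.

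**Figure D3:**
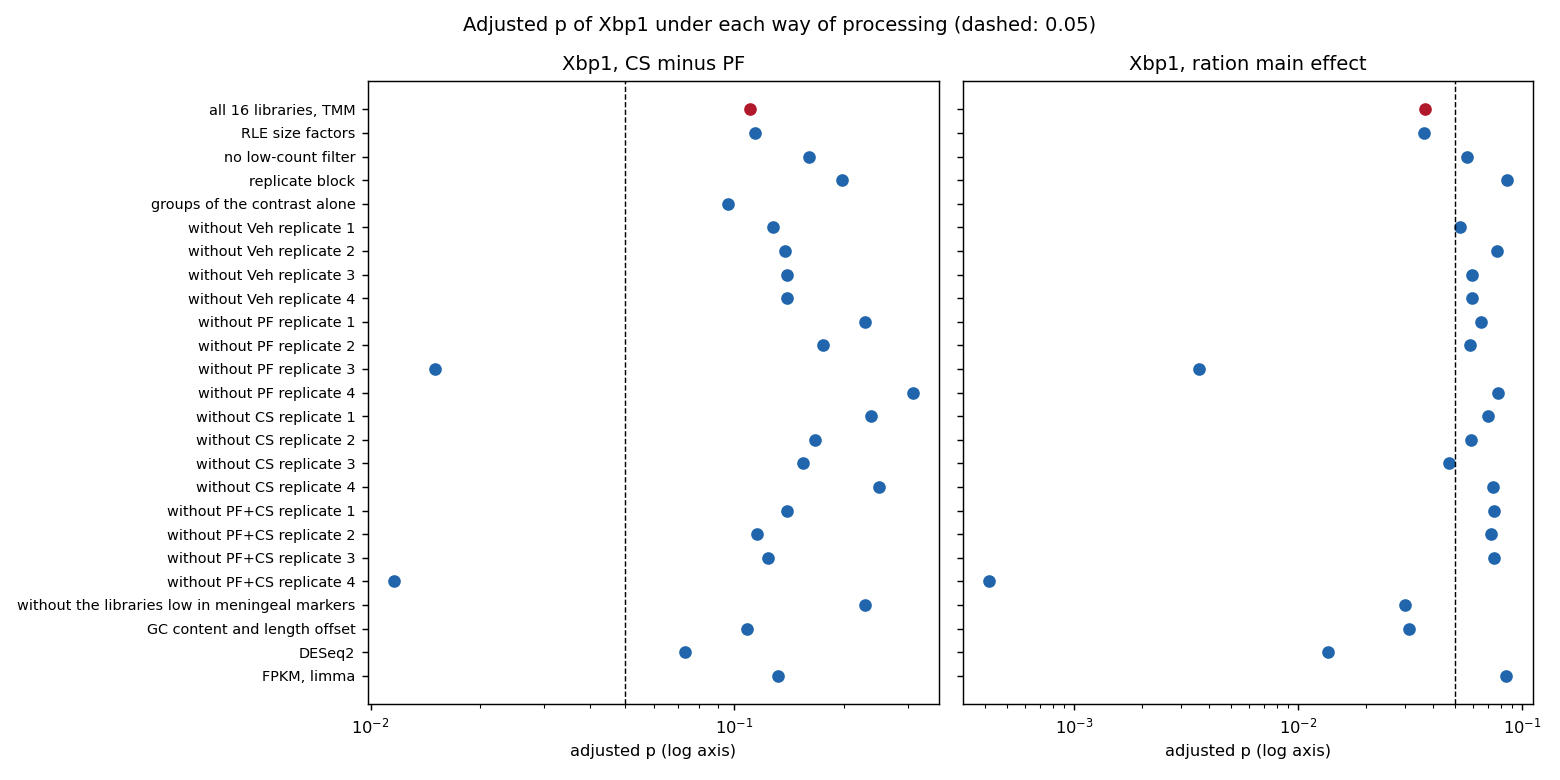
Adjusted p (horizontal log axis) of Xbp1 in CS minus PF (left) and in the contrast by diet (right) with all 16 libraries (red) and under each other way of processing (blue); the dashed line marks 0.05. On the right most points lie within 0.0299 to 0.0856, on both sides of the line, and the lowest is that without PF+CS 4.

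Cell-type markers moved with the groups as well. The 8 oligodendrocyte markers summed to 3044 to 3584 CPM in PF+CS, 3667 to 4021 in CS, 3076 to 3415 in PF and 3170 to 3842 in Veh. The 8 microglia markers summed to 228 to 272 CPM in PF+CS, 259 to 267 in CS, 233 to 255 in PF and 261 to 275 in Veh, and the 10 endothelial markers to 367 to 436, 313 to 378, 297 to 353 and 271 to 295 CPM in the same order of groups. Of 7 striatum markers 6 were in the table, and they summed to 148 to 171 CPM in PF+CS, 131 to 150.0 in CS, 145 to 169.7 in PF and 128 to 140.0 in Veh. No marker found from these 4 lists was at 0. The endothelial sum had medians of 399.8 CPM in PF+CS, 348 in CS, 313 in PF and 288 in Veh, so it was higher with celastrol as well as on the ration, while the striatum sum had its higher and the other 2 their lower medians on the ration. Their part in the result for Xbp1 was not tested.

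Ern1 encodes IRE1, the kinase and nuclease that splices Xbp1. It had 27.2, 26.9, 23.9 and 27.1 CPM in PF+CS libraries, 23.6, 22.6, 20.6 and 23.6 in CS, 23.6, 23.7, 25.9 and 27.6 in PF, and 24.3, 22, 25.8 and 22 in Veh. PF+CS lay above CS without overlap and CS lay below PF without overlap, by a small margin in both, and no other member was free of overlap in any of the 6 differences. Of all genes tested, 10.1% were without overlap in PF+CS minus CS and 10.7% in CS minus PF, so 1 of 9 is near the background. In the other differences the share was 8.94% in CS minus Veh, 8.26% in PF minus Veh, 13.7% in PF+CS minus Veh and 4.16% in PF+CS minus PF. PF+CS minus CS was 0.22 log2 (SE 0.08, 95% interval 0.06 to 0.38, adjusted p = 0.14 by edgeR) and CS minus PF -0.17 log2 (SE 0.08, interval -0.33 to 0.00, adjusted p = 0.266). By diet Ern1 ranged over 23.6 to 27.6 CPM in the 8 libraries on the ration, against 20.6 to 25.8 in the 8 with free food, with 5 libraries on the ration above all those with free food. Its difference by diet was 0.16 log2 (interval 0.05 to 0.28, adjusted p = 0.0597) and missed the threshold. Without the 5 libraries low in meningeal markers it was 0.22 log2 (adjusted p = 0.0241).

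Dnajb9, a co-chaperone of BiP and a target of spliced XBP1, had 66.9, 60.8, 57.8 and 54.1 CPM in PF+CS libraries, 62.7, 58.5, 58.2 and 59.3 in CS, 55.0, 66.5, 57.1 and 64.6 in PF, and 53.6, 54.6, 62.1 and 64.4 in Veh. The groups overlapped fully, and PF+CS held both the highest value and one near the lowest. Its 6 intervals lay within -0.18 to 0.20 log2, and its difference by diet was 0.03 log2 (interval -0.07 to 0.13, adjusted p = 0.74 by edgeR). Whether it differed in this from Xbp1 was not tested.

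Atf6, the sensor that is itself a transcription factor, had 66.6, 68.5, 68.6 and 63.7 CPM in PF+CS libraries, 67.1, 69.9, 65.6 and 58.1 in CS, 62.1, 67.4, 66.6 and 66.5 in PF, and 67.2, 59.3, 63.5 and 59.1 in Veh. The groups overlapped, with the 2 lowest values in CS and Veh. PF+CS minus Veh was 0.11 log2 (SE 0.06, interval -0.01 to 0.22, adjusted p = 0.248 by edgeR), the largest of its 6 differences.

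**Figure D4:**
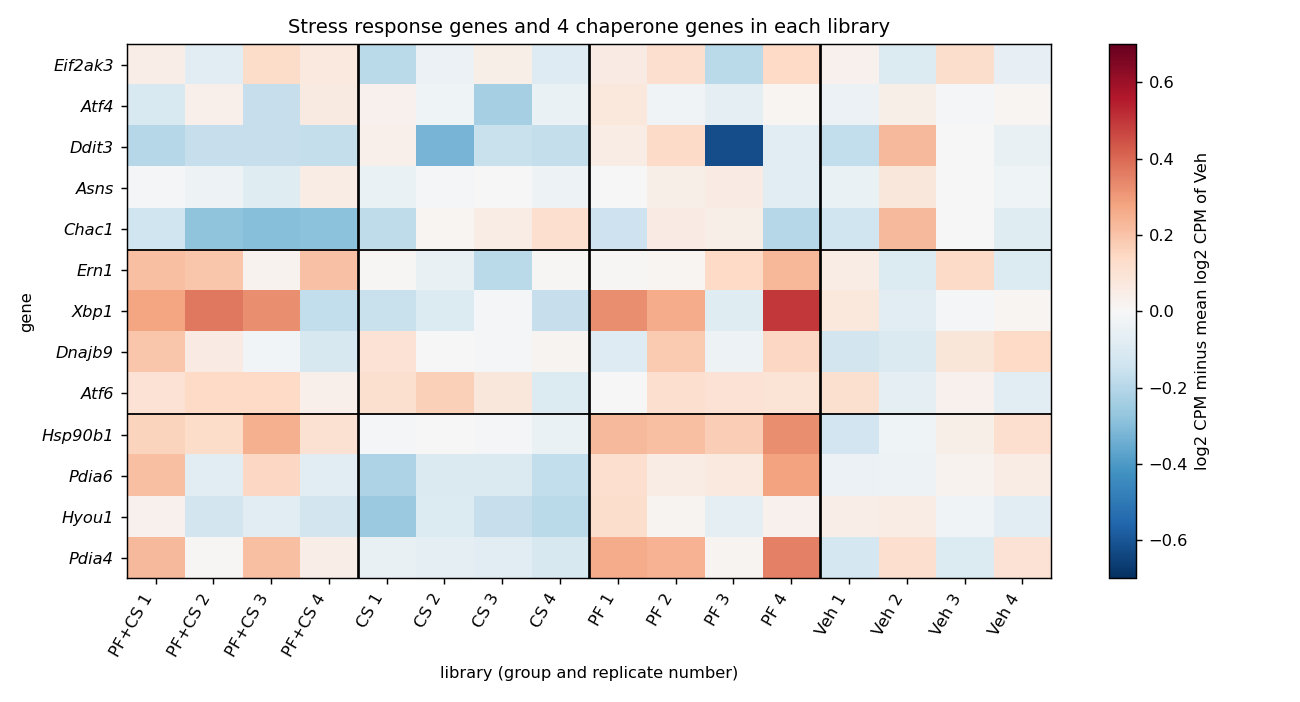
Log2 CPM of 9 members and 4 chaperone genes (rows) in each library (columns), minus the mean log2 CPM of Veh; red is higher and blue is lower, and black lines part the groups and the arms. Xbp1 is red in 3 of 4 PF+CS and 3 of 4 PF libraries, Hsp90b1 is red in all 8 of these, and Asns stays pale throughout.

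The wider pathway was followed in 5 lists of 107 genes that do not hold the members. Among 36 targets of XBP1 and ATF6, the chaperones and export genes of the endoplasmic reticulum, 9 were called lower in CS minus PF and 0 higher, where 2.23% of all genes were called lower. The list's median was -0.11 log2, against -0.01 over all genes tested, and 31 of 36 were below 0. By diet, 9 of 36 were called higher and 0 lower, where 6.92% of all genes were called higher, with a median of 0.07 log2 against 0.00 over all genes. In the celastrol contrast 1 was called lower (Hyou1; 1.45% of all genes) and 0 higher. PF minus Veh called 2 higher (2.36% of all genes) and 0 lower, PF+CS minus Veh 2 higher (5.85%) and 1 lower (4.47%), PF+CS minus CS 1 higher (1.79%), CS minus Veh 1 lower (0.589%) and the difference of PF+CS and PF 0, with 3 at an unadjusted p below 0.05 and 0 by DESeq2. CS minus PF and the contrast by diet share all CS and PF libraries, so the 2 counts of 9 are not separate evidence. The count in CS minus PF was 7 by DESeq2, 2 by limma on FPKM, 3 when the 5 libraries low in meningeal markers were dropped, and 2 to 11 with 1 library left out, lowest without PF 4 (2) and CS 1 (3). By diet it was 8 by DESeq2, 2 by limma on FPKM and 5 to 13 with 1 library left out, lowest without PF 4 and highest without PF+CS 4. Without the 5 libraries low in meningeal markers it was 10 of 36 by diet, all higher, 4 in PF+CS minus CS, 1 in PF minus Veh and 0 by celastrol. Over all genes the calls in that fit also rose in PF+CS minus CS and fell by celastrol, as the last section gives. These counts are therefore not read as a change in the list itself.

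Hsp90b1, the chaperone GRP94 whose window holds the stress element at both positions given above, had 541, 529.8, 576 and 522 CPM in PF+CS libraries, 482, 485, 480.1 and 469 in CS, 567, 561, 547 and 608 in PF, and 443, 476, 499 and 527 in Veh. Every PF+CS and every PF library lay above every CS library, and 1 Veh library, Veh 4, reached into the range of PF+CS. CS minus PF was -0.25 log2 (SE 0.04, 95% interval -0.34 to -0.17, adjusted p = 0.00102 by edgeR), a call kept in 24 of 24 other ways of processing. PF minus Veh was 0.23 log2 (adjusted p = 0.00268), without overlap, a call lost in 1 of 24, by limma on FPKM. PF+CS minus CS was 0.18 log2 (adjusted p = 0.0188) and PF+CS minus Veh 0.16 log2 (adjusted p = 0.0178). These 2 calls were less firm, lost in 7 and 4 of 24 other ways of processing (adjusted p up to 0.152 and 0.229), among them limma on FPKM and leaving out PF+CS 3. By diet it rose by 0.21 log2 (SE 0.03, adjusted p = 4.71e-05), kept in 23 of 23.

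Pdia6, a disulfide isomerase, had 86.4, 93.6, 93.5 and 89.1 CPM in CS libraries, against 109, 104, 105 and 122 in PF. Its mean was 100.4 CPM in Veh and 104 in PF+CS. Against Veh, CS was at -0.15 log2 (adjusted p = 0.23 by edgeR) and PF at 0.14 (adjusted p = 0.208). CS minus PF was -0.28 log2 (SE 0.06, adjusted p = 0.00757 by edgeR), no library overlapped, and the call was lost in 1 of 24 other ways of processing, without PF 4 (adjusted p = 0.0604). In CS minus PF, Pdia4, another isomerase, was at -0.31 log2 (SE 0.07, adjusted p = 0.00869) and Hyou1, a large BiP partner, at -0.20 (SE 0.04, adjusted p = 0.00857). For Pdia4, CS minus Veh was only -0.08 log2 (adjusted p = 0.645), while PF minus Veh was 0.23 (adjusted p = 0.0497) and called higher. That call of PF minus Veh was lost in 17 of 24 other ways of processing, among them without the 5 libraries low in meningeal markers. By diet Pdia4 rose by 0.22 log2 (adjusted p = 0.00266) and Pdia6 by 0.17 (adjusted p = 0.00786), calls lost only by limma on FPKM. The call of Pdia4 in CS minus PF was lost in 3 of 24, among them without PF 4 and without the 5 libraries low in meningeal markers (-0.30 log2, adjusted p = 0.079). That of Hyou1 was lost in 2 of 24, without CS 1 and by limma on FPKM, and its call by celastrol was lost by limma on FPKM and without the 5 libraries (-0.13 log2, adjusted p = 0.0719). Hyou1 had 189, 211, 202 and 198 CPM in CS, 246, 229, 216 and 231 in PF, and 233, 234, 222 and 215 in Veh. It was low in CS against both, and CS minus Veh was -0.18 log2 (adjusted p = 0.0474), which was lost in 12 of 24 other ways of processing. Hspa5, which encodes BiP, the chaperone that holds all 3 sensors inactive, is named here after its values were seen. It averaged 319 CPM in CS and 399.5 in PF, and CS minus PF was -0.33 log2 (SE 0.08, adjusted p = 0.0483), a call kept in 6 of 24 other ways of processing and lost, among others, without the 5 libraries (adjusted p = 0.0914).

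Of the 33 listed targets of ATF4 and CHOP, 30 were tested. By diet 3 were called higher (Ddit4, Map1lc3b and Mthfd2) and 2 lower (Slc6a9 and Slc7a5; 4.52% of all genes), with a median of 0.01 log2 against 0.00 over all genes. In PF+CS minus Veh 1 was called higher and 4 lower, in PF minus Veh 1 higher and 1 lower (1.28% of all genes), in CS minus PF 1 higher (1.56%) and 2 lower, in PF+CS minus CS 2 higher and 2 lower (0.866%). CS minus Veh and the difference of PF+CS and PF had 0, with 4 and 1 at an unadjusted p below 0.05 and 0 by DESeq2. Without the 5 libraries low in meningeal markers the calls were 6 higher and 5 lower by diet, 4 and 4 in PF+CS minus Veh, 4 and 2 in PF minus Veh, 2 and 0 in CS minus PF, 4 and 3 in PF+CS minus CS, and 1 higher in CS minus Veh. Over all genes the calls in that fit also rose in CS minus Veh and in PF+CS minus CS. These counts are likewise not read as a change in the list itself. The calls thus ran in both directions. Ddit4, which encodes REDD1, an inhibitor of the growth kinase mTORC1 that other stresses and glucocorticoids also induce, changed most. It had 54.9, 63.2, 37.7 and 36.1 CPM in PF+CS libraries, 24.8, 19.5, 21.8 and 22.7 in CS, 57.2, 41.6, 36.5 and 58.7 in PF, and 19.3, 18.7, 26.8 and 18.3 in Veh. All 8 libraries on the ration lay above all 8 with free food. By diet Ddit4 rose by 1.16 log2 (SE 0.16, 2.23-fold, adjusted p = 0.000655 by edgeR), kept in 23 of 23 other ways of processing. Its call in CS minus PF (-1.13 log2, adjusted p = 0.0185) was lost in 5 of 24 (adjusted p up to 0.1). Among these was the fit without the 5 libraries low in meningeal markers.

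The 2 targets called lower on the ration are amino acid transporters. By diet each was at -0.21 log2, Slc6a9 with an adjusted p of 0.000616 and Slc7a5 with 0.00308 by edgeR. Slc6a9 was also called lower in PF minus Veh (-0.21 log2, adjusted p = 0.0257), which was lost in 6 of 24 other ways of processing. Slc6a9, the glycine transporter GLYT1, had 74.9, 69.6, 66.9 and 76.9 CPM in PF+CS libraries and 87.5, 88.1, 82.5 and 83.3 in Veh, without overlap, and PF+CS minus Veh was -0.25 log2 (SE 0.05, adjusted p = 0.00404 by edgeR), kept in 24 of 24. Slc7a5, the large neutral amino acid transporter LAT1, had 42.2, 41.9, 46.0 and 48.3 CPM in PF+CS, 53.2, 52.6, 54.1 and 51.9 in CS, 48.5, 46.1, 43.6 and 37.4 in PF, and 48.9, 49.8, 49.5 and 46.8 in Veh. Every CS library lay above those of the other groups. CS minus Veh (0.12 log2, adjusted p = 0.394) and PF minus Veh (-0.17, adjusted p = 0.157) were not called. CS minus PF was at 0.28 log2 (SE 0.07, adjusted p = 0.0123) and PF+CS minus CS at -0.25 (SE 0.06, adjusted p = 0.0289). The first call was lost in 2 of 24 (without PF 4 and by limma on FPKM) and the second in 9 of 24 (adjusted p up to 0.15), among them after leaving out any single CS library and with the replicate block. Sqstm1, the autophagy receptor p62, had 360.2, 349, 328 and 362 CPM in PF+CS libraries and 404, 417, 396 and 383 in Veh. PF+CS minus Veh was -0.19 log2 (SE 0.04, adjusted p = 0.00161), kept in 24 of 24, and Sqstm1 was the 1 gene of the list called in the celastrol contrast (-0.12 log2, adjusted p = 0.0121), a call lost without the 5 libraries low in meningeal markers (-0.10 log2, adjusted p = 0.0887). Mthfd2, a mitochondrial folate enzyme, had 10.2, 8.87, 9.32 and 9.19 CPM in CS and 10.8, 15, 12.1 and 14.1 in PF, and CS minus PF was -0.49 log2 (SE 0.12, adjusted p = 0.0156). This call was lost without the 5 libraries (-0.48 log2, adjusted p = 0.072) and without PF 2, PF 4 or CS 4 (adjusted p up to 0.0807). Phgdh of serine synthesis and the cationic transporter Slc7a1 fell in PF+CS minus Veh by 0.31 and 0.19 on the log2 scale (adjusted p = 0.0282 and 0.0215), calls lost in 3 and 5 of 24, each time without 1 of the PF+CS or Veh libraries.

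Of 12 aminoacyl-tRNA synthetases, which ATF4 induces together with Asns, 2 were called lower in PF+CS minus Veh (Lars and Aars; 4.47% of all genes) and 0 higher. Lars was -0.20 log2 (SE 0.06, adjusted p = 0.0182 by edgeR) and Aars -0.14 (SE 0.05, adjusted p = 0.0455), and these calls were lost in 5 and 12 of 24 other ways of processing. PF+CS minus CS called 1 lower (Lars), where 0.866% of all genes were called lower. This call (adjusted p = 0.0463 by edgeR) was lost in 9 of 24 other ways of processing (adjusted p up to 0.19). Among these were leaving out any single CS library and the replicate block. By diet 1 of 12 was called lower, where 4.52% of all genes were (Lars, -0.19 log2, adjusted p = 0.00182). Of 12 eIF2 kinases, phosphatase subunits and eIF2B subunits, 0 were called in any of the 6 differences by edgeR, with 1 to 3 at an unadjusted p below 0.05 and 1 call by DESeq2, in CS minus PF. Without the 5 libraries low in meningeal markers 1 was called lower in PF+CS minus Veh and 1 in PF+CS minus CS, where the calls over all genes rose as well. By diet Ppp1r15b, the constitutive partner of the eIF2 phosphatase, was at 0.12 log2 (adjusted p = 0.0318) and Eif2ak2, the kinase PKR, at -0.34 log2 (adjusted p = 0.0405). In the celastrol contrast Eif2ak4, the amino acid sensing kinase GCN2, was at 0.13 log2 (adjusted p = 0.0441; 1.14% of all genes were called higher). Each of these 3 calls was lost in 13 or 14 of 23 other ways of processing, those of Ppp1r15b and Eif2ak4 also without the 5 libraries (adjusted p = 0.105 and 0.185). Of 14 partners of ATF6 and IRE1, PF+CS minus Veh called 1 lower (Tmbim6, -0.11 log2, adjusted p = 0.0334; 4.47% of all genes) and PF+CS minus CS 1 higher (Map3k5, 0.20 log2, adjusted p = 0.0496; 1.79% of all genes). These calls were lost in 8 and 15 of 24 other ways of processing (adjusted p up to 0.128 and 0.35). By diet 1 of 14 was called higher, again Map3k5, where 6.92% of all genes were.

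**Figure D5:**
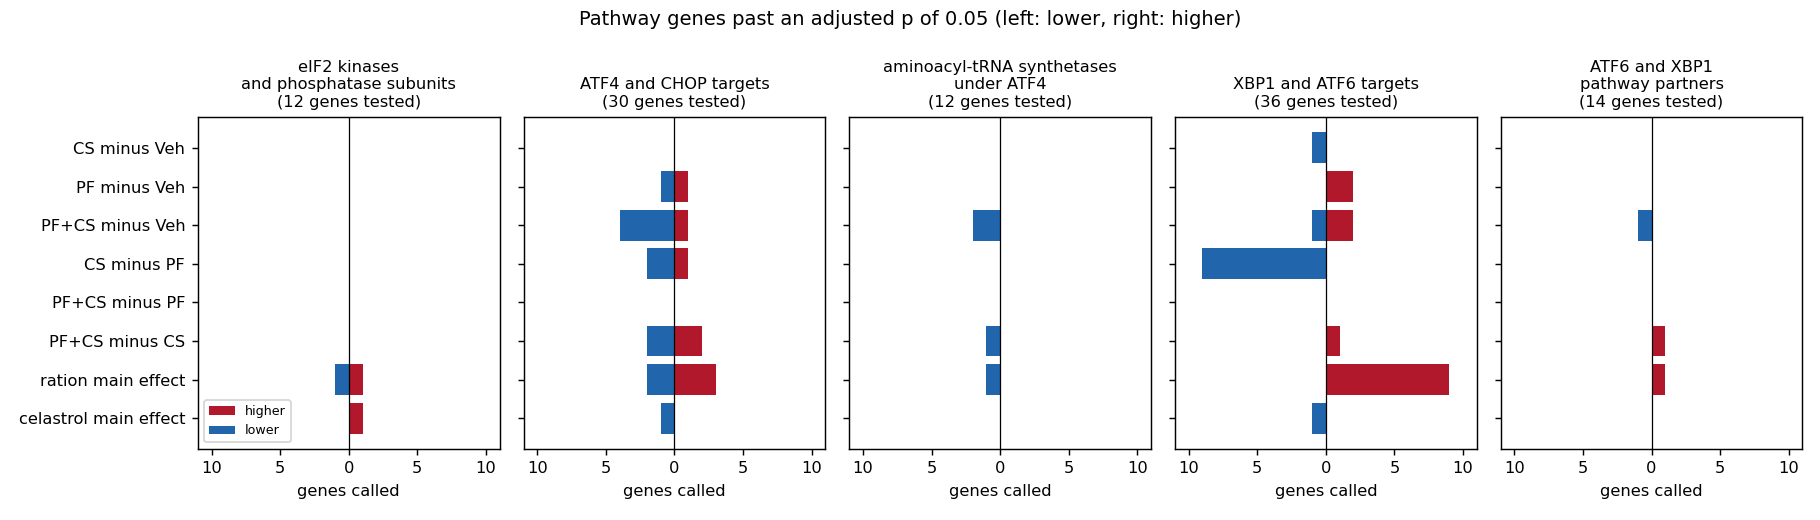
Genes called at an adjusted p of at most 0.05 (horizontal axis; lower to the left, higher to the right) in each of 5 pathway lists (panels) and 8 contrasts (rows). The longest bars are those of the XBP1 and ATF6 targets, 9 of 36 lower in CS minus PF and 9 of 36 higher on the ration. These contrasts share libraries. The other lists have at most 5 calls in a contrast. In PF+CS minus Veh and in PF+CS minus CS the ATF4 and CHOP targets have more calls than the XBP1 and ATF6 targets.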

How the data were processed

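The authors deposited a table of whole-number counts and, for the same 16 libraries, a table read here as FPKM, whose name says counts while its fractional values fall with gene length (Spearman's rho of counts per FPKM against transcript length 0.82 across 13964 genes, which are not independent). The authors also deposited 5 comparison tables that give a mean of normalised counts (baseMean), the log2 fold change and its error, their ratio as a score, and raw and adjusted p-values. Their columns are those of DESeq2, per the file headers. Per the labels' protocols, RNA was extracted by column and libraries were made with a SMARTer mRNA kit; reads were placed on GRCm38, per the submitters' processing notes. For aligner, counter and strand, nothing was given in the sources used here.

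One model held the counts of every library, in edgeR 4.0.16 (R 4.3.3; robust quasi-likelihood, TMM scaling, filterByExpr at a minimum count of 10), with Benjamini-Hochberg adjustment over 14775 genes. CPM are the same counts scaled to library size, and intervals cover 95%. The common biological coefficient of variation was 0.055. The script was tested on simulated data. Beside the 6 differences between groups and the interaction, (PF+CS minus PF) minus (CS minus Veh), 2 contrasts by diet and by celastrol were added after the values had been seen. The members and the pathway lists were chosen with earlier results of these data known. From each list at most 4 genes called per contrast were named, by smallest adjusted p. The alternatives were DESeq2 1.42.0, limma 3.58.1 on log2(FPKM + 0.1), other size factors, no filter, the 2 groups alone, a block, GC content and length (known for 95.1% of tested genes), and leaving out libraries. Names turned into dates by a spreadsheet (27) were tested but not named. Gene positions came from GENCODE M21 and promoter windows from RefSeq (GRCm38.p6).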

Additional observations from a re-analysis of the deposited data

Results flagged for a closer look

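In 40 groups of 4 libraries (10 genes in 4 groups), 3 held a library whose gap to its nearest neighbour took up more of the group's whole range than Dixon's 95% critical value allows; chance flags about 1 in 20 such groups. Chac1 had 4.42 CPM in PF+CS 1, above the 3.95 to 4.00 CPM of the other 3 PF+CS libraries. Ern1 had 23.9 CPM in PF+CS 3, below the 26.9 to 27.2 CPM of the other 3. Atf6 had 62.1 CPM in PF 1, below the 66.5 to 67.4 CPM of the other 3 PF libraries. PF+CS 4 and PF 3, which were low in Xbp1, did not stand apart in Xbp1 by this measure. PF+CS 4 differed from the rest of its group over all genes (chi-square per degree of freedom 4.83 to 5.18, against 1.95 to 2.24 among the other 3). In Veh such values reached 6.59 (Veh 1 and Veh 4).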

How the results depend on the processing

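Over the 9 members tested and up to 24 other ways of processing, 145 of 1917 log2 estimates changed sign, by at most 0.18 in size and 0 of them with a call. Members called stayed at 0 in CS minus Veh, PF+CS minus PF, the interaction and the celastrol contrast in every setting run. With 1 library left out they were 0 to 1 in PF minus Veh, PF+CS minus Veh, CS minus PF, PF+CS minus CS, and 0 to 1 by diet. By diet they were 0 without the low-count filter, 0 by limma on FPKM, 0 with the replicate block and 2 without the libraries low in meningeal markers (Xbp1 and Ern1). In the fit of all 16 libraries 11.4% of all genes were called by diet. With 9 members, these counts are not read as a result on the members. With 1 library left out, genes called ranged over 10 to 242 in CS minus Veh, 111 to 810 in PF minus Veh, 710 to 2007 in PF+CS minus Veh, 190 to 841 in CS minus PF, 1 to 24 in PF+CS minus PF, 113 to 961 in PF+CS minus CS, 1091 to 2108 by diet and 138 to 465 by celastrol. With the 2 groups alone they were 257 in CS minus Veh, 284 in PF minus Veh, 7 in PF+CS minus PF and 598 in PF+CS minus CS. DESeq2 called 298 in CS minus Veh and 30 in PF+CS minus PF. Without the libraries low in meningeal markers the counts were 342 in CS minus Veh, 0 in PF+CS minus PF, 1013 in PF+CS minus CS and 160 by celastrol. By limma on FPKM they were 20, 136, 178, 0 and 99 in CS minus Veh, PF minus Veh, CS minus PF, then PF+CS minus PF and last PF+CS minus CS, 853 by diet (387 higher, 466 lower, against 1023 and 668) and 227 by celastrol. The counts over all genes to set these beside are 132, 537, 561, 14 and 392 in the same 5 comparisons, 1691 by diet and 383 by celastrol. The cause of these shifts was not tested. With the replicate block PF+CS minus CS called 223 genes. The replicate numbers did not pair the libraries: 5 of 24 same-numbered pairs deviated together (r above 0.1; range -0.415 to 0.326) and 1 of 16 libraries correlated best with its own number. Where 1 library of 4 is left out the pooled spread stands in for the group. Depth limits Trib3 (0 to 11 counts) and Chac1 (26 to 62).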
